A study of Mus musculus with 6 samples.

Results

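Carriers of inorganic ions and metals were followed in Evi1-driven mouse myeloid cells before and after the inducer of Evi1 was removed. Genes were taken by symbol from the Slc4, Slc8, Slc9, Slc11, Slc12, Slc20, Slc24, Slc26, Slc30, Slc34, Slc39 and Slc40 families, which matched 76 of 18193 genes on the arrays. Of these, 73 encode carriers. The pattern also matched 3 genes of other proteins named after a carrier, Slc4a1ap, Slc9a3r1 and Slc9a3r2. Each gene was read from its probe set, a group of short probes for 1 transcript, of highest mean over all arrays, and the Slc26 genes from all of their 18 probe sets. Genes of these families read only by probe sets without a symbol of their own were not analysed here.

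All cells were of the myeloid clone C6, haematopoietic progenitors of the Rosa26rtTA C57BL/6J background carrying pRRL.TET.Evi1.IRES.EGFP, a lentiviral vector from which doxycycline induces a codon-optimized murine Evi1 together with EGFP. Evi1 is a zinc finger transcription factor, and the series calls the clone dependent on it. The medium of both groups held murine SCF (50 ng/ml), murine IL-3 (20 ng/ml), human Flt-3 ligand (50 ng/ml) and human IL-11 (50 ng/ml). The doxycycline group (n = 3 arrays) was kept under 1 µg/ml doxycycline, and the withdrawal group (n = 3 arrays) was taken 48 h after the drug was removed. Because 1 clone was used and separate cultures are not stated, the p-values set the group difference only against the spread of arrays within groups. Part of that spread may be technical, and differences between clones do not enter it. Doxycycline itself and Evi1 changed together in this design and cannot be told apart.

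Solute carriers are membrane proteins that move small molecules down or against a gradient. The Slc4 and Slc26 families exchange bicarbonate, chloride and sulfate, the Slc12 family couples chloride to sodium and potassium, and Slc9 proteins exchange sodium for protons, so that together they set cell pH and volume. Slc8 and Slc24 proteins extrude calcium, Slc20 and Slc34 proteins import phosphate, Slc11 and Slc40 proteins carry iron, and the Slc30 and Slc39 families lower and raise cytosolic zinc. Slc26a3, also called DRA, is a chloride and bicarbonate exchanger best known from the surface of the colon, where its loss causes chloride diarrhoea.

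After withdrawal 3 of the 76 genes rose and 4 fell at a limma adjusted p below 0.05, beside 1.2% of all genes higher and 1.57% lower. Slc26a3 was 5.10-fold higher, Slc24a3, a potassium-dependent sodium and calcium exchanger, 1.75-fold higher, and Slc40a1, the iron exporter ferroportin, 1.71-fold higher. Slc12a2, the sodium, potassium and chloride importer NKCC1, was 1.77-fold lower. Slc4a8, a sodium-driven chloride and bicarbonate exchanger, was 1.48-fold lower on its brightest probe set, and the zinc importers Slc39a1 (1.34-fold) and Slc39a6 (1.30-fold) were lower too. With any 1 array left out 3 still rose, while 1 fell, or 3 without withdrawal replicate 3. The other 69 genes did not pass, 10 of them with an unadjusted p below 0.05. Over all genes this held for 2455 of the 17689 that did not pass. The median difference (withdrawal minus doxycycline, log2) was 0.04 over the 76 genes and 0.01 over all genes, and the median absolute difference was 0.12 and 0.09.

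**Figure D1:**
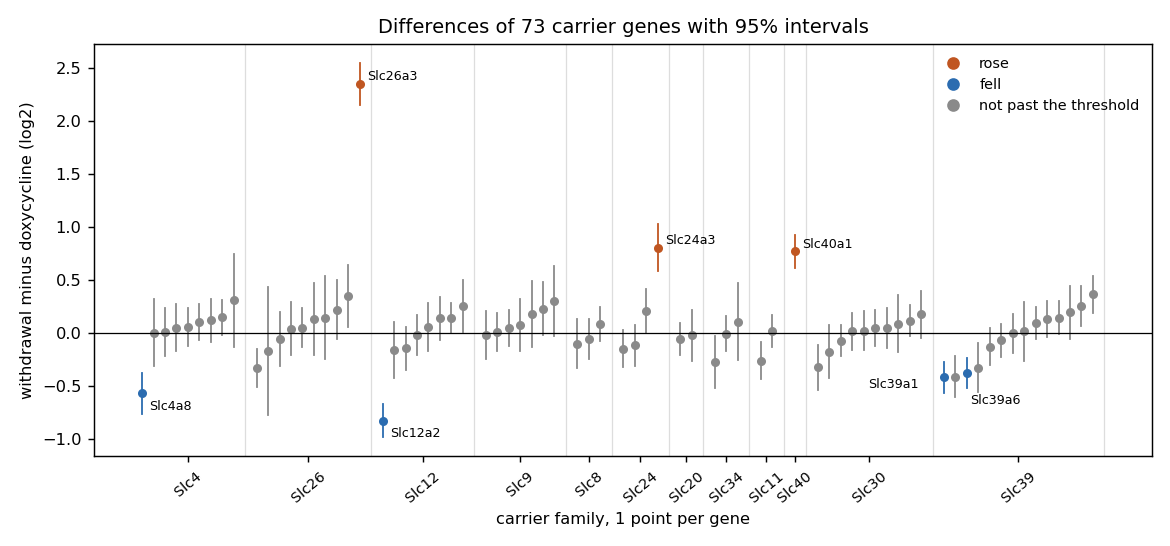
Difference between withdrawal and doxycycline (vertical axis, log2) for the 73 carrier genes, 1 point per gene, grouped by family, with bars for the 95% interval of limma. Slc26a3 stands at 2.35, while Slc24a3 and Slc40a1 lie near 0.8 and Slc12a2 lies at -0.83.

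The groups did not overlap for 11 of the 76 genes that were higher and 13 that were lower after withdrawal, beside 12.4% and 12.2% of all genes. Of the 76, 46 had a mean level at or above the median of all probe sets (5.24 on the log2 scale), and all 7 genes past the threshold were among them. Array values are compressed near the floor, so differences of dim genes may be understated. Levels of different genes are not comparable, because each probe set binds with its own strength.

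Array medians ran from 5.22 to 5.27. Withdrawal replicate 3 and doxycycline replicate 1 stood apart from the other arrays on the second principal component, which held 31.9% of the variance. Without both arrays, a choice made after seeing the data, 2 carriers (Slc26a3 and Slc40a1) still rose and 0 fell in limma. At an unadjusted p below 0.05, 12 of the 76 were then lower and 8 higher, beside 7.04% and 7.07% of all genes. The 3 probe sets of Mecom, the gene of Evi1, differed by -0.10 to 0.13 near the floor. They may not bind a codon-optimized transcript and so do not check the labels. All 10 blood cell markers, among them Ptprc, Spi1 and Kit, were above the median level, and 1 of them, Cd34, fell (-0.51 ± 0.10, limma adjusted p = 0.0463). None of 4 stromal markers passed, and of 4 lymphoid markers 1, Ighm, fell (-0.85 ± 0.07, limma adjusted p = 0.00237). Over all genes 1.57% fell. The part of these markers in the carrier results was not tested.

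Because Slc26a3 had the largest difference of the 76 genes, the 250 bases upstream of its annotated start are shown, with those of Slc24a3 for comparison, as RefSeq gives them on build GRCm38.p6 (plus strand of both). Slc26a3 lies at chr12:31437969-31438218 and the outer of 2 annotated starts of Slc24a3 at chr2:145167525-145167774. Capitals mark TATAAA, the TATA box letters, a motif picked after the sequence was seen.

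Slc26a3: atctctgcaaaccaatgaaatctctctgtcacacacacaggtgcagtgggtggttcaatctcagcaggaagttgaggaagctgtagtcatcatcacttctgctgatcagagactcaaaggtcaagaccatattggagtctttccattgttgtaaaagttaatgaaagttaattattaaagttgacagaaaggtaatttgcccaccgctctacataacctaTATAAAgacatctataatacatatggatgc

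Slc24a3: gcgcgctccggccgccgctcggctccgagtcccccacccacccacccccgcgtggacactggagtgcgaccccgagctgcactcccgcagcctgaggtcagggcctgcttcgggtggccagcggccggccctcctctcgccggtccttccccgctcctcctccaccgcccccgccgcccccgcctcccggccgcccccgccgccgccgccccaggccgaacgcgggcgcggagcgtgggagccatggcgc

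The Slc26a3 window held 1 TATAAA, its first base 30 bases before the start, and 38.8% G and C. The Slc24a3 window held 0 and 80.8% G and C. The window of the other annotated start of Slc24a3, not printed, also held 0, with 63.6% G and C. Among 32851 promoter windows of this length, 12.4% held TATAAA on either strand, and the median G and C content was 52.4%. GATAAG, letters of the site of the first zinc finger domain of EVI1, was in no window of either gene (6.55% of all windows). GAAGATGAG, letters of the site of the second, was in none of them either (0.347%). Both were searched on both strands.

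Among the Slc26 anion exchangers, 2 of 18 probe sets were called higher, both of Slc26a3, and none was called lower, beside 0.79% of all probe sets called higher. Of the other 16, 4 had an unadjusted p below 0.05, and these read only Slc26a3 itself, Slc26a2 and Slc26a1. Counted by gene, each on its brightest probe set, this held for 2455 of the 17689 genes that did not pass. The brightest Slc26a3 probe set (1429467_s_at) read 5.60, 5.77 and 5.66 under doxycycline and 8.08, 7.88 and 8.11 after withdrawal on the log2 scale. The lowest withdrawal array lay far above the highest doxycycline array. Its mean went from 5.67 ± 0.09 (SD, n = 3) to 8.02 ± 0.12 (SD, n = 3), a difference of 2.35 ± 0.09 (SE; 95% interval 2.15 to 2.55; limma adjusted p = 3.51e-05).

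This probe set can bind more than 1 transcript, as the letter s in its name marks. The second Slc26a3 probe set (1421445_at), with no such mark, read 4.39, 4.40 and 4.26 under doxycycline and 6.82, 6.29 and 6.61 after withdrawal. It rose by 2.22 ± 0.13 (SE, n = 3 per group; limma adjusted p = 0.000439), and its interval of 1.91 to 2.53 overlapped that of the first. Leaving out any 1 array, or both that stood apart, ended neither call.

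The other 2 Slc26a3 probe sets did not pass. The brighter of them (1427547_a_at) read 4.26, 4.77 and 4.80 under doxycycline and 5.20, 5.51 and 5.19 after withdrawal, so its groups did not overlap, with a difference of 0.69 ± 0.16 (limma adjusted p = 0.0906). The dimmest (1453151_at), with means of 3.53 and 3.76, differed by 0.23 ± 0.13 and its groups overlapped (limma adjusted p = 0.487). With the mean of all 4 the gene's difference was 1.37, still past the threshold.

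**Figure D2:**
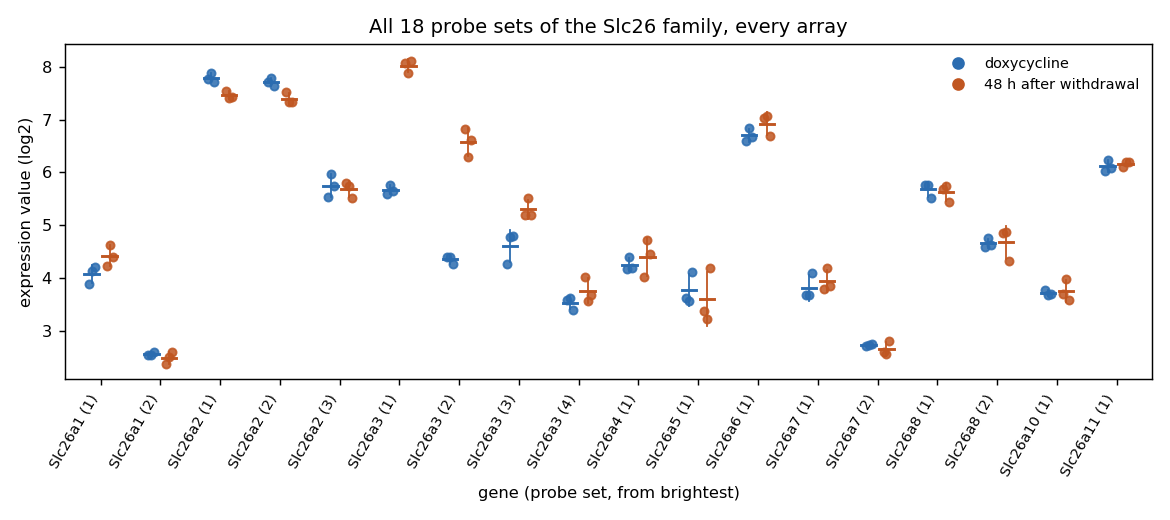
Expression value (log2, vertical axis) on every array for the 18 Slc26 probe sets, numbered within a gene from the brightest, with doxycycline in blue and withdrawal in orange, and lines for the mean and SD of 3 arrays. The first 2 Slc26a3 probe sets separate by 2.35 and 2.22, and those of Slc26a2 show the opposite order on 2 of 3.

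Slc26a2, a sulfate carrier needed to sulfate cartilage proteoglycans, was lower on its brightest probe set without passing. It read 7.78, 7.89 and 7.71 under doxycycline and 7.55, 7.41 and 7.43 after withdrawal, with no overlap. The difference was -0.33 ± 0.08 (limma adjusted p = 0.0887). A second Slc26a2 probe set gave -0.31 ± 0.08 and the dimmest -0.06 ± 0.12.

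No other gene of the family passed. Slc26a1, a hepatic and renal sulfate exchanger, was dim at 4.07 and 4.42 and differed by 0.35 ± 0.12 (limma adjusted p = 0.250). Its second probe set, dimmer still, had the opposite sign (-0.07 ± 0.08). Slc26a6, an exchanger of chloride, oxalate and bicarbonate, differed by 0.22 ± 0.12, and Slc26a11, a lysosomal and membrane anion carrier, by 0.05 ± 0.08. The intervals were -0.06 to 0.50 for Slc26a6 and -0.13 to 0.23 for Slc26a11. Slc26a4, the pendrin of the inner ear and thyroid (0.15 ± 0.17), and Slc26a5, the prestin of outer hair cells (-0.17 ± 0.26), had overlapping groups. So did Slc26a7 (0.13 ± 0.15), Slc26a8, a testis protein (-0.05 ± 0.11), and Slc26a10 (0.04 ± 0.11). The second probe sets of Slc26a7 (-0.07 ± 0.08) and Slc26a8 (0.02 ± 0.15) had the opposite sign.

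Of 13 markers of epithelium, the tissue in which Slc26a3 is best known, none passed in limma. For 1 of them (Vil1, lower) the unadjusted p was below 0.05, beside 2959 of all 18193 genes. Epcam and Cldn3 were the 2 above the median level of all probe sets. The summed log2 values of the 13 markers were 58.00 to 58.17 over the doxycycline arrays and 57.62 to 59.44 over the withdrawal arrays. The intestinal markers Cdh17 (4.19), Fabp2 (3.01) and Cdx1 (3.91) were near the floor on the mean of all arrays. In a bulk sample, more cells of a type and more RNA per cell cannot be told apart.

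In the Slc4 family 1 of 9 carriers fell, beside 1.57% of all genes. Slc4a8 read 7.28, 7.38 and 7.23 under doxycycline and 6.68, 6.63 and 6.86 after withdrawal, a difference of -0.57 ± 0.08 (limma adjusted p = 0.0191). The groups did not overlap on this probe set, but the other 4 Slc4a8 probe sets, all dimmer, differed by only -0.07 to 0.18 and none passed. With the mean of its 5 probe sets the gene differed by -0.06 ± 0.06 (limma adjusted p = 0.658), and the call on the brightest was also lost when any 1 array except withdrawal replicate 3 was left out (adjusted p up to 0.0927).

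The other Slc4 genes did not pass. Slc4a2, the anion exchanger AE2 of most nucleated cells, had the widest interval among them, with a difference of 0.31 ± 0.19 (limma adjusted p = 0.529). Its withdrawal arrays read 7.71, 7.81 and 7.08, the last of them within the doxycycline arrays (7.05 to 7.35). Slc4a1, the band 3 exchanger of red cells, was at the floor in both groups, with 3.42 under doxycycline and 3.57 after withdrawal. Slc4a1ap, which is not a carrier, differed by -0.07 ± 0.11.

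Among 8 cation and chloride cotransporters of the Slc12 family 1 fell, beside 1.57% of all genes. Slc12a2 imports sodium, potassium and chloride and raises cell chloride. It read 8.40, 8.29 and 8.31 under doxycycline and 7.57, 7.49 and 7.47 after withdrawal. Every withdrawal array lay below every doxycycline array, and the difference was -0.83 ± 0.07 (95% interval -0.98 to -0.67; limma adjusted p = 0.00172). Its 2 dimmer probe sets were also lower without overlap but did not pass, at -0.41 ± 0.11 and -0.44 ± 0.10, and with the mean of the 3 the difference was -0.56, past the threshold. The gene stayed past the threshold without any 1 array, and without both arrays apart it was lost at a limma adjusted p of 0.0522.

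The potassium and chloride exporters, which work against Slc12a2 on cell chloride, did not pass. Slc12a4 differed by 0.14 ± 0.09, Slc12a5 by -0.02 ± 0.08 and Slc12a7 by -0.14 ± 0.09. Slc12a1 and Slc12a3, cotransporters of the kidney tubule, were dim at means of 3.27 and 4.29. Of 10 measured regulators of these cotransporters none passed and 1 had an unadjusted p below 0.05, beside 2959 of all 18193 genes. It was Sgk1, a salt-responsive kinase (-0.27 ± 0.07, limma adjusted p = 0.151). Oxsr1, a kinase that phosphorylates the cotransporters, differed by -0.15 ± 0.07, and Wnk1, the kinase above it, by -0.02 ± 0.07.

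No sodium and proton exchanger of the Slc9 family passed. None of the 7 had an unadjusted p below 0.05, beside 2959 of all 18193 genes. The largest differences were those of the Golgi exchanger Slc9a8 (0.30 ± 0.14) and of Slc9a7 (0.23 ± 0.11). The probe sets of Slc9a8 disagreed in sign, from -0.34 to 0.30. The endosomal Slc9a9 differed by 0.18 ± 0.13. The adaptors that tie Slc9a3 to the cytoskeleton did not pass either. Slc9a3r1 was bright at means of 11.38 and 11.50 and spread widely between arrays (0.12 ± 0.20), and Slc9a3r2 differed by 0.01 ± 0.12 on its brightest probe set, although 2 of its other probe sets were higher without overlap (0.45 ± 0.11 and 0.42 ± 0.09, limma adjusted p = 0.102 and 0.0608).

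Of the calcium exchangers, 1 of 4 Slc24 genes rose, beside 1.2% of all genes, and none of 3 Slc8 genes passed. Slc24a3 swaps sodium for calcium and potassium at the cell surface. It read 7.73, 7.89 and 7.98 under doxycycline and 8.70, 8.78 and 8.53 after withdrawal, on its only probe set. The groups were clear of each other, with a difference of 0.81 ± 0.10 (95% interval 0.58 to 1.03; limma adjusted p = 0.00796). It held without any 1 array, with adjusted p up to 0.0435, and was lost at a limma adjusted p of 0.0523 without both arrays apart.

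Slc24a4 differed by 0.21 ± 0.09 (limma adjusted p = 0.351), Slc24a1 by -0.15 ± 0.08 and Slc24a2 by -0.12 ± 0.08. Slc8a2 differed by -0.10 ± 0.10, and Slc8a1, the heart exchanger, was dim at 3.68. Among 18 measured sodium, proton and calcium pumps and their partners, 1 rose and none fell, beside 1.2% and 1.57% of all genes. It was Mcu, the calcium channel of mitochondria, which went from 9.40 ± 0.04 (SD, n = 3) to 9.83 ± 0.06 (SD, n = 3), a difference of 0.42 ± 0.07 (limma adjusted p = 0.0259). This call was lost when any 1 array was left out, with adjusted p up to 0.118, and the second Mcu probe set differed by 0.08 ± 0.11. Slc8b1, which takes calcium out of mitochondria (0.29 ± 0.06, limma adjusted p = 0.0635), and Hvcn1, the proton channel of phagocytes (0.28 ± 0.09, limma adjusted p = 0.224), did not pass.

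Phosphate importers gave no call. Slc20a1, the phosphate carrier and retrovirus receptor PiT1, read from 8.98 to 9.12 over all 6 arrays and differed by -0.05 ± 0.06, with an interval of -0.20 to 0.10. Its 2 dimmer probe sets had the opposite sign, at 0.19 ± 0.10 and 0.05 ± 0.11. Slc20a2 differed by -0.02 ± 0.10. Of 3 kidney and gut type Slc34 genes 1 had an unadjusted p below 0.05, beside 2959 of all 18193 genes. This was Slc34a1 (-0.27 ± 0.10, limma adjusted p = 0.289).

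Among the iron carriers the exporter rose. Slc40a1, the only known iron exporter of cells and the target of hepcidin, read 9.91, 9.81 and 9.84 under doxycycline and 10.60, 10.58 and 10.69 after withdrawal. The groups were separated by more than the spread within either, with a difference of 0.77 ± 0.07 (95% interval 0.61 to 0.93; limma adjusted p = 0.00226). The second Slc40a1 probe set also rose, by 0.80 ± 0.08 (limma adjusted p = 0.00484), from 7.70 to 8.50. It held without any 1 array (adjusted p up to 0.0225) and without both arrays apart (adjusted p = 0.0460).

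**Figure D3:**
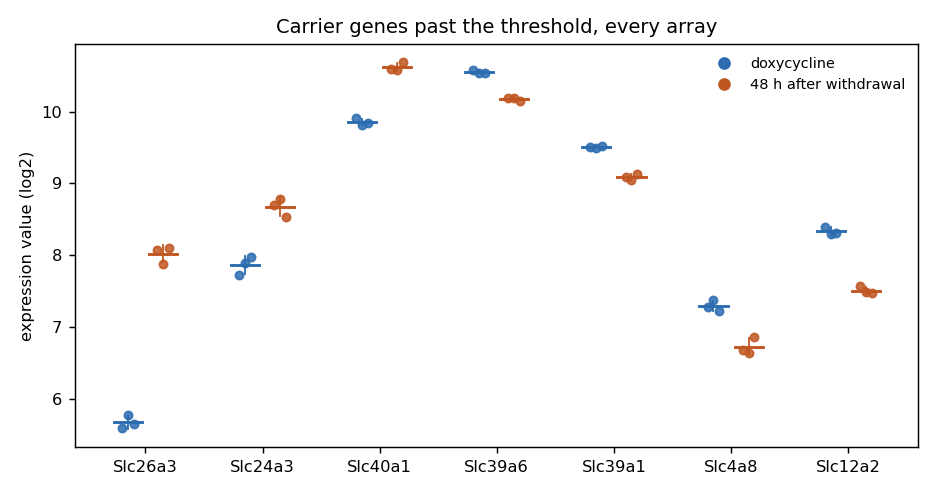
Expression value (log2, vertical axis) of the 7 carriers past the threshold on every array, with doxycycline in blue and withdrawal in orange, and lines for the mean and SD of 3 arrays. In all 7 the groups do not overlap. Slc26a3 goes from 5.67 to 8.02 and Slc40a1 from 9.85 to 10.62, while Slc12a2 goes from 8.33 to 7.51.

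The iron importers of the Slc11 family did not pass. Slc11a1, the NRAMP1 carrier of phagosomes, was lower without overlap, reading 7.59, 7.77 and 7.71 under doxycycline and 7.39, 7.49 and 7.39 after withdrawal, at -0.26 ± 0.07 (limma adjusted p = 0.16). Slc11a2, the endosomal and intestinal importer DMT1, differed by 0.02 ± 0.06, with an interval of -0.13 to 0.18.

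Of 20 measured genes of iron handling 1 fell and none rose, beside 1.57% and 1.2% of all genes. It was Tfr2, an iron-sensing receptor of liver and red cell precursors, which read 7.46, 7.63 and 7.58 under doxycycline and 6.58, 6.59 and 6.59 after withdrawal. The difference was -0.97 ± 0.07 (limma adjusted p = 0.000859), on a probe set that can bind other transcripts, and the second Tfr2 probe set fell by 0.57 as well (limma adjusted p = 0.0393). Tfrc, the transferrin receptor that imports iron, was higher without passing (0.30 ± 0.06, limma adjusted p = 0.0603), and so was the mitochondrial iron carrier Slc25a37 (0.35 ± 0.10, limma adjusted p = 0.174). Fth1, the ferritin heavy chain gene, differed by -0.05 ± 0.06, and Ireb2, which controls several of these mRNAs through their stability and translation, by -0.07 ± 0.06.

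Of 5 measured red cell markers none passed and 3 had an unadjusted p below 0.05, beside 2959 of all 18193 genes. Klf1 (-0.48 ± 0.10) and Epor (-0.37 ± 0.11) were lower and Alas2 (0.37 ± 0.09) was higher, while Hba-a1 was near the floor at 4.15. The summed log2 values of the 5 ran from 25.85 to 26.38 over the doxycycline arrays and from 25.49 to 26.14 over the withdrawal arrays. Their part in the iron results was not tested.

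None of 10 carriers of the Slc30 family passed. Slc30a1, the zinc exporter of the cell surface, had the largest difference. Alone of the 10 it had an unadjusted p below 0.05, beside 2959 of all 18193 genes. It read 7.53, 7.56 and 7.57 under doxycycline and 7.38, 7.25 and 7.07 after withdrawal, with no overlap (-0.32 ± 0.09, limma adjusted p = 0.145). On its dimmer probe set the groups overlapped (-0.15 ± 0.08). Slc30a5, Slc30a6 and Slc30a7, which load zinc into the secretory pathway, differed by -0.07 ± 0.06, 0.02 ± 0.08 and 0.12 ± 0.06.

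Of 14 zinc importers of the Slc39 family 2 fell, beside 1.57% of all genes. Slc39a1 brings zinc in through the cell surface and read 9.51, 9.49 and 9.53 under doxycycline and 9.09, 9.05 and 9.13 after withdrawal. The difference was -0.42 ± 0.06 (limma adjusted p = 0.0209). Slc39a6, which acts at the surface with Slc39a10, read 10.58, 10.54 and 10.54 under doxycycline and 10.19, 10.19 and 10.15 after withdrawal. It differed by -0.38 ± 0.06 (limma adjusted p = 0.0276).

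In both genes the arrays of a group lay close together and the groups were clear of each other, yet the calls were near the threshold. That of Slc39a1 was lost when any 1 array except withdrawal replicate 3 was left out, with adjusted p up to 0.111. That of Slc39a6 was lost without any 1 of the 6 (adjusted p up to 0.118) and with the mean of its 4 probe sets (-0.26 ± 0.07, limma adjusted p = 0.102). Its 3 dimmer probe sets differed by -0.28, -0.31 and -0.05.

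**Figure D4:**
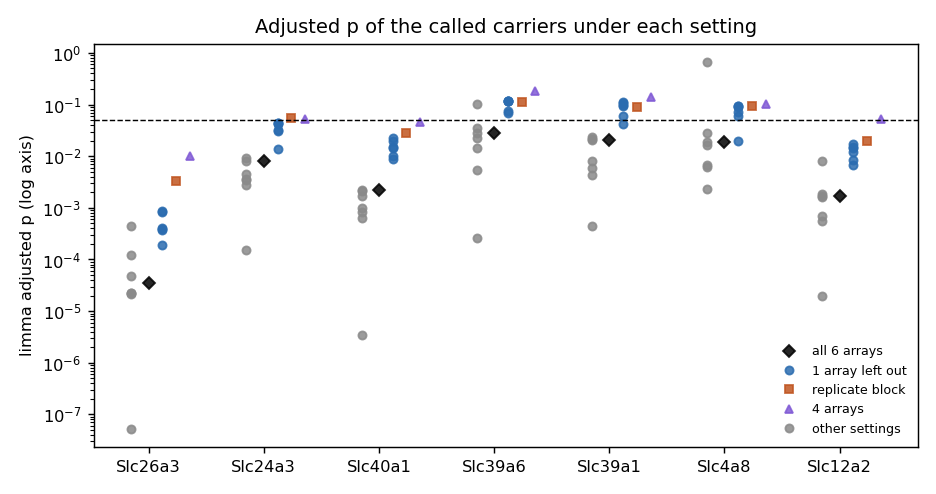
Adjusted p from limma (vertical axis, log scale) of the 7 called carriers with all 6 arrays, with 1 array left out, with the replicate block, with 4 arrays and under the other settings, with a dashed line at 0.05. Slc26a3 and Slc40a1 stay below the line throughout, and Slc39a6, Slc39a1 and Slc4a8 cross it under most fits with 1 array left out.

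In the Slc39 family 5 of 14 genes were lower and 3 higher without overlap, beside 12.2% and 12.4% of all genes. Of the 14, 11 were at or above the median level, beside 11143 of all 18193. With dim probe sets filtered out, 13.6% of genes were lower and 12.3% higher at an unadjusted limma p below 0.05. Without the filter these shares were 8.26% and 8%, so the shares over all genes may be low for this family. Slc39a10 and Slc39a2, singled out after their values were seen, came close to the threshold in opposite directions. Slc39a10 read 8.09, 8.16 and 8.29 under doxycycline and 7.82, 7.83 and 7.66 after withdrawal (-0.41 ± 0.08, limma adjusted p = 0.0597). Its dimmer probe set differed by -0.09 ± 0.10, with overlapping groups. The dim Slc39a2 read 4.91, 4.82 and 4.99 and then 5.29, 5.20 and 5.34 (0.37 ± 0.07, limma adjusted p = 0.0599). The carriers that release zinc from internal stores, Slc39a7 of the endoplasmic reticulum (0.10 ± 0.07) and Slc39a9 of the Golgi (0.15 ± 0.07), did not pass. Slc39a8, which also carries manganese, differed by 0.25 ± 0.08 (limma adjusted p = 0.202).

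Of 12 genes of zinc and copper handling 1 fell, beside 1.57% of all genes. Mt2, a zinc-storing metallothionein that zinc induces, went from 12.28 ± 0.01 (SD, n = 3) to 11.90 ± 0.03 (SD, n = 3), a difference of -0.38 ± 0.06 (limma adjusted p = 0.0265). Its call was lost when any 1 array was left out, with adjusted p up to 0.125. Mt1, the other common metallothionein, differed by -0.01 ± 0.06, and Mtf1, the zinc sensor that switches both on, by 0.08 ± 0.07. Cox17, a copper chaperone of mitochondria (0.22 ± 0.07), and Atp7a, a copper pump (-0.14 ± 0.09), did not pass.

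Carbonic anhydrases make the bicarbonate that Slc4 and Slc26 proteins carry. Of 25 carbonic anhydrases, anion channels and related genes such as Ahcyl1, 2 fell and none rose, beside 1.57% and 1.2% of all genes. Car13, a cytosolic carbonic anhydrase, read 7.34, 7.34 and 7.38 under doxycycline and 6.40, 6.30 and 6.28 after withdrawal (-1.03 ± 0.07, limma adjusted p = 0.000568), and its other 2 probe sets fell by 1.13 and 1.27. Car2, the fast cytosolic enzyme of red cells and osteoclasts, read 8.31, 8.34 and 8.35 and then 7.74, 7.68 and 7.82 (-0.59 ± 0.07, limma adjusted p = 0.00674). Its call was lost without doxycycline replicate 3 (adjusted p = 0.0508) and without both arrays apart (adjusted p = 0.0753), whereas that of Car13 was kept in both.

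The chloride exchanger Clcn3 of endosomes (-0.29 ± 0.07, limma adjusted p = 0.0869) and Car12 (-0.29 ± 0.16, limma adjusted p = 0.485) did not pass. Cftr, the epithelial chloride channel that works beside Slc26a3 in gut and airway, was at the floor with a mean of 2.97. Among 14 carriers of manganese, magnesium and phosphate outside the Slc families above, 1 fell, beside 1.57% of all genes. Nipa1, a magnesium carrier of endosomes, differed by -0.77 ± 0.13 (limma adjusted p = 0.0310), and its other probe set fell by 0.72. Its call was lost when any 1 array except withdrawal replicate 1 was left out, with adjusted p up to 0.126. Cnnm2 (0.40 ± 0.14, limma adjusted p = 0.230) and Slc41a2 (0.32 ± 0.13, limma adjusted p = 0.331), also linked to magnesium, did not pass.

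**Figure D5:**
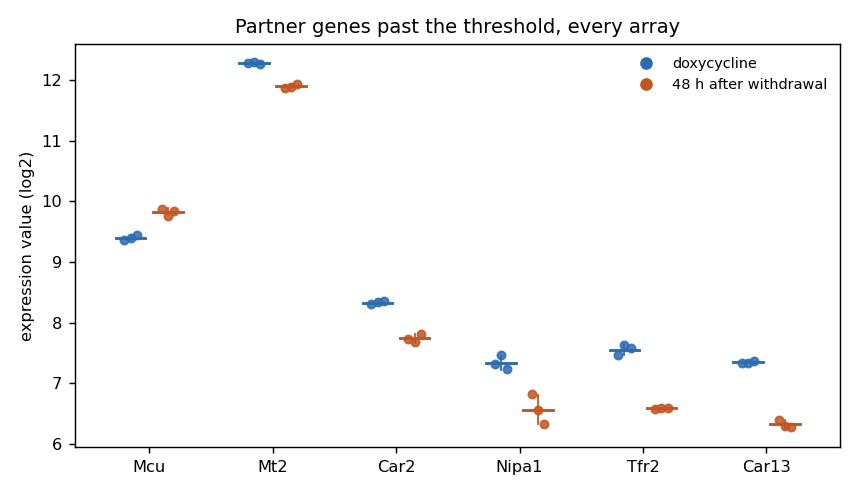
Expression value (log2, vertical axis) on every array of the 6 partner genes past the threshold, with doxycycline in blue and withdrawal in orange, and lines for the mean and SD of 3 arrays. Mcu is higher after withdrawal, and Mt2, Car2, Nipa1, Tfr2 and Car13 are lower.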

How the data were processed

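Expression was measured on 6 arrays, 1 per sample, from amplified and biotin-labelled cDNA of total RNA, per the labels' protocols. Values in the deposited table are on the log2 scale and were made by the authors with RMA, per the submitters' processing notes. The sources used here give neither its version nor the chip definition. RMA equalizes the distributions of the arrays, so a shift of most transcripts would not be seen.

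After 64 control probe sets were set aside, 45037 of 45101 were tested. The platform annotation gives 1 symbol to 34945 of them, several to 932 and none to 9160. It names all 76 members, each found in RefSeq with the same symbol. Promoter sequences came from RefSeq, which was matched by symbol.

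The test was limma 3.58.1 (lmFit, then eBayes; R 4.3.3), two-sided, with Benjamini-Hochberg adjustment over all 45037 probe sets and a threshold of 0.05. There were 4 residual and 3.54 prior degrees of freedom. Named were members past the threshold, all Slc26 genes, in each family the brightest and the most different gene, the 3 genes that are not carriers and, of each partner list, genes past the threshold and up to 2 others. Further genes were added for their function after their values were seen. The members and lists were chosen with earlier results of these data known.

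On simulated data the test found 82% of 100 probe sets shifted by 1 (log2) and 24% of 100 shifted by 0.5, with 2 false among 108 calls. Figures used matplotlib 3.10.9.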

Additional observations from a re-analysis of the deposited data

How the results depend on the processing

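Alternatives were each array left out in turn, the replicate block, a filter on dim probe sets, 2 rescalings, 2 variance settings, averaging over a gene's probe sets and leaving out probe sets that read several transcripts. A fit on 4 arrays was added after seeing the data. Between 2 and 4 carriers rose in all of these. The count that fell, 4 with all arrays, was 1 to 3 with 1 array left out (1 without each array except withdrawal replicate 3), 1 with the replicate block, 2 with that average and 0 with 4 arrays in limma, where 12 of the 76 were lower and 8 higher at an unadjusted p below 0.05 (7.04% and 7.07% of all genes). It was 6 with the dim filter, array weights or trend and robust options, which all added Slc39a10 and Slc26a2. Of the Slc26 probe sets, 4 passed with the dim filter or array weights, 5 with trend and robust options and 1 when probe sets reading several transcripts were left out, because the brightest of Slc26a3 is then gone. Other causes were not tested. No called difference changed sign.

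Same-numbered arrays of the groups deviated together for replicate 2 (correlation 0.46) and not for replicates 1 (-0.30) and 3 (-0.03), and the labels name nothing that a number shares, so the numbers were not taken as pairs. The replicate block ended the calls of Slc24a3 (adjusted p = 0.0538), Slc39a1, Slc39a6 and Slc4a8, and of the partners Mcu, Mt2 and Nipa1. With 3 arrays per group, changes of 0.5 on the log2 scale were mostly missed in simulation, and signal near the floor limits the dim carriers. That simulation took bright and dim probe sets together and gave 108 calls, against 356 probe sets called higher alone in the data. Its share of missed changes therefore need not hold for the carriers.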
